A study of Mus musculus with 6 samples.

Results

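The PPM phosphatases of the cerebellum were compared between mice fed a low-Mn diet and mice fed a normal-Mn diet. The genes were a list of 10 Ppm1 phosphatases, which need manganese or magnesium, chosen by name. All 10 (Ppm1a, Ppm1b, Ppm1e, Ppm1f, Ppm1g, Ppm1h, Ppm1j, Ppm1k, Ppm1l and Ppm1m) were found among the 53715 mouse genes of the count table. The Ppm1 genes Ppm1d and Ppm1n were not in the list and are given below with the other genes of the PPM family. RNA-seq was done on the cerebella of male wild-type C57BL/6 mice, which were 4 weeks old at purchase and are called adult in the labels. For 2 weeks, 3 mice received a diet labelled 0 ppm Mn and 3 received a diet with 35 ppm Mn, and each mouse gave 1 library of polyadenylated RNA. The labels give no genotype or treatment other than the diet that differs between the groups. The methods call the mice biological replicates, whereas a legend speaks of technical triplicates, in which case the p-values would cover technical spread alone.

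PPM phosphatases remove phosphate from serine and threonine residues. They hold a pair of metal ions, manganese or magnesium, in the active site, where the metals activate the water that attacks the phosphate. Most enzymes of the PPP family, such as PP1 and PP2A, keep tightly bound metals and act in complexes with regulatory subunits. Most PPM enzymes work as single chains and end signals of stress kinases, calcium-dependent kinases and metabolic enzymes. Their dependence on added manganese in the test tube is a textbook property of the family. The libraries measured their transcripts, and neither phosphatase activity nor metal occupancy was measured in these files.

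A shared stretch of the coding sequence shows the metal site on which the family's name rests. An aspartate in an aspartate-glycine-histidine motif is one of the residues that hold the metal ions. The codons of this motif (GAT or GAC, then GGN, then CAT or CAC) were searched in frame on the coding strand of 1 transcript per gene. They were found exactly once in each of the 10 genes, in 10 of 10 against 954 of 21605 annotated coding sequences (4.42%). They were also found in 5 of 9 other genes of the PPM family and in 1 of 13 catalytic subunits of the PPP family. The stretches below run 5′ to 3′ from GENCODE M21 transcripts (GRCm38), with the 3 codons of the motif in capitals and 21 bases on each side.
Ppm1a (chr12:72783859-72783909, plus strand, exon 2 of 6): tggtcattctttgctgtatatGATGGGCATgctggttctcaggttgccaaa
Ppm1b (chr17:84993850-84993900, plus strand, exon 2 of 6): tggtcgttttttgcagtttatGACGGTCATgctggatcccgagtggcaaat
Ppm1e (chr11:87240729-87240779, minus strand, exon 4 of 7): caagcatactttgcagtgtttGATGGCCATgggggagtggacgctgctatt
Ppm1f (chr16:16915172-16915222, plus strand, exon 5 of 8): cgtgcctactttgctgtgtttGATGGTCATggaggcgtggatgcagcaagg
Ppm1g (chr5:31208082-31208420, minus strand, exons 2 and 3 of 10): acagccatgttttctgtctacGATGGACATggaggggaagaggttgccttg
Ppm1h (chr10:122802253-122802303, plus strand, exon 3 of 10): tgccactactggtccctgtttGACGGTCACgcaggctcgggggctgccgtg
Ppm1j (chr3:104783136-104783186, plus strand, exon 3 of 10): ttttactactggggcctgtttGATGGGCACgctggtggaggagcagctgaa
Ppm1m (chr9:106197937-106197987, minus strand, exon 3 of 10): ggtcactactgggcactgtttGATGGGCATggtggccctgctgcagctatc
Ppm1k (chr6:57524769-57524819, minus strand, exon 2 of 7): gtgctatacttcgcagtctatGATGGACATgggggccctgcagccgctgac
Ppm1l (chr3:69317927-69497782, plus strand, exons 1 and 2 of 4): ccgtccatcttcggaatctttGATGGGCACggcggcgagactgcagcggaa
In Ppm1g and Ppm1l the stretch spans a splice junction, so that its coordinates include an intron. The stretches were most alike in Ppm1e and Ppm1f, at 76.5% identical bases, followed by Ppm1a and Ppm1b at 74.5%. The least alike were those of Ppm1g and Ppm1j, at 39.2%. The motif begins at codon 60 in Ppm1a, Ppm1b and Ppm1g, at codon 127 in Ppm1k and Ppm1m, at codon 128 in Ppm1l, and farther in at codon 270 in Ppm1e, whose 749 codons were the most among the 10 Ppm1 genes.

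None of the 10 transcripts differed between the diets at an adjusted p under 0.05 in edgeR's quasi-likelihood test, and none had an unadjusted p under 0.05. Over all genes tested, 0.595% passed (96 of 16123), with 67 of them higher in low-Mn mice and 29 lower. Leaving out low-Mn replicate 1 left 47 such genes, leaving out low-Mn replicate 2 left 37 and leaving out normal-Mn replicate 2 left 45, while the count of PPM transcripts that passed was 0 in every one of these fits. It was also 0 with limma-voom, and 0 of 8 with DESeq2, which gave no adjusted p for Ppm1j and Ppm1m. The log2 fold changes of the 10 genes (low-Mn mice over normal-Mn mice) ran from -0.05 to 0.10 with a median of 0.02, against a median of -0.0026 over all genes tested. All 10 were less than 1.1-fold. Ppm1d, a Ppm1 gene outside the list, was at 1.14-fold (unadjusted p = 0.010 and adjusted p = 0.235 from edgeR). Apart from Ppm1j, the 95% intervals of the other 9 genes lay between -0.20 and 0.21, that is, between -12.7% and 15.9%. Changes larger than these bounds lay outside the intervals of all 9 genes. Some intervals were narrower, such as that of Ppm1b, from -6.2% to 6.3%. Changes within a gene's own interval were not excluded with 3 mice per diet. In 2 of the 10 genes, Ppm1a and Ppm1k, every low-Mn library was above every normal-Mn library. Such separation in either direction was found in 17.1% of all genes tested, and with the low-Mn libraries higher in 8.79%, so that 2 of 10 is near the background.

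**Figure D1:**
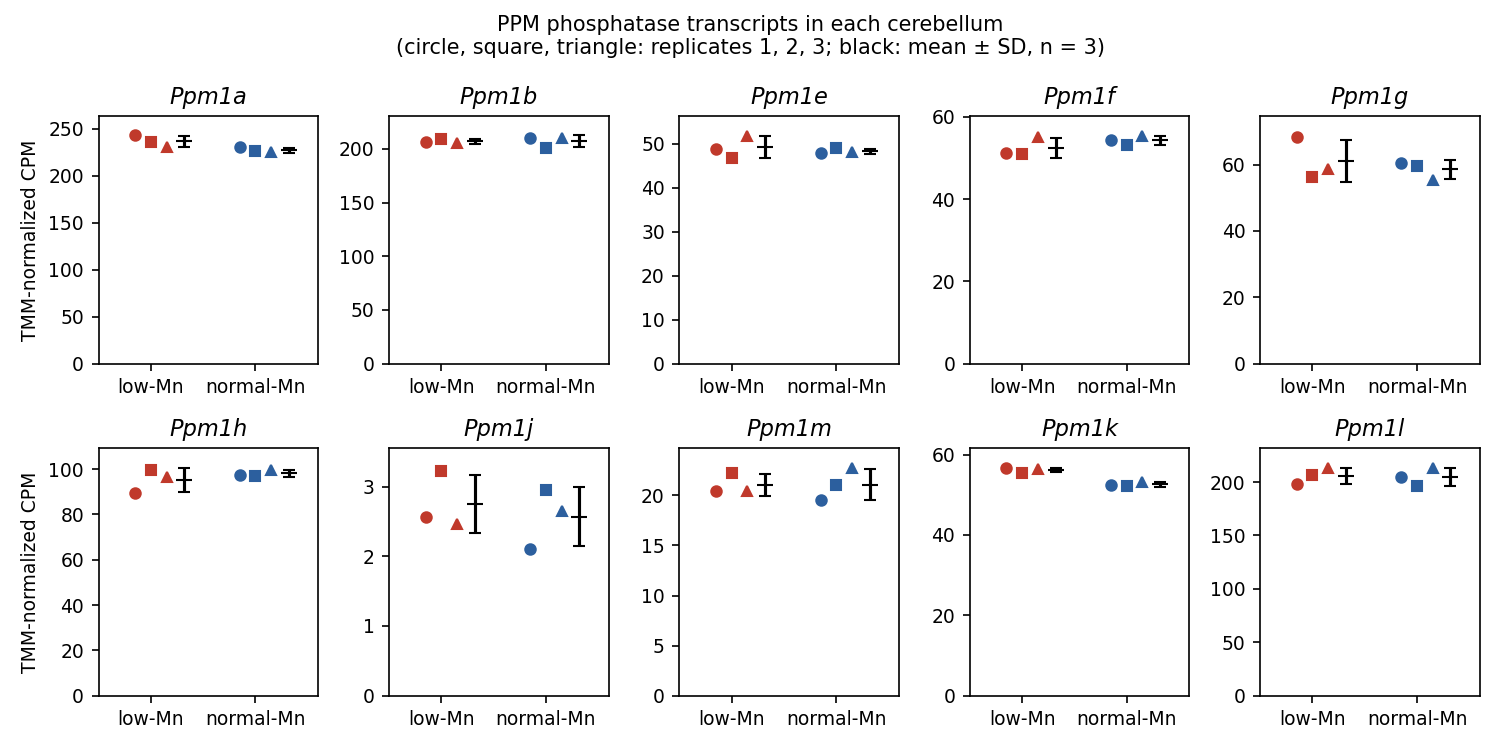
TMM-normalized CPM (y axis, from 0) of each PPM transcript in the 3 low-Mn libraries (red) and the 3 normal-Mn libraries (blue), with the mean and SD in black. The diets overlap in every panel except those of Ppm1a, at 230.5 to 243 against 225 to 230.1, and Ppm1k, at 55.5 to 56.6 against 52.1 to 53.3.

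Ppm1a and Ppm1b encode the founding cytosolic enzymes of the family, which switch off SMADs, stress-activated kinases and AMP-activated kinase. Ppm1a (ENSMUSG00000021096, chromosome 12, 72757455 to 72799819) had a normalized CPM of 243, 236 and 230.5 in low-Mn replicates 1 to 3 and of 230.1, 226 and 225 in normal-Mn replicates 1 to 3. The low-Mn libraries lay just above the normal-Mn ones. Its log2 fold change was 0.06 (standard error 0.0428, 95% interval -0.03 to 0.15, adjusted p = 0.645 from edgeR). Ppm1b (ENSMUSG00000061130, chromosome 17, 84956741 to 85023991) had 207, 209.5 and 205 in low-Mn mice and 211, 201 and 210.4 in normal-Mn mice. The diets overlapped, and the log2 fold change was -0.0015 (standard error 0.0432, 95% interval -0.09 to 0.09, adjusted p = 0.993 from edgeR). These were among the most precise estimates of the 10, resting on 4190 and 3760 counts per library on average. Of the 50-base stretches of Ppm1b, 13.4% also occur in the processed pseudogene Gm7895, so that its counts are uncertain in that part. Gm7895 itself was assigned between 1.06 and 6.48 counts per library.

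Ppm1e and Ppm1f encode phosphatases that reverse the activation of calcium/calmodulin-dependent kinases and of the PAK kinases. Ppm1e (ENSMUSG00000046442, chromosome 11, 87226906 to 87359023) had a normalized CPM of 48.9, 46.9 and 51.9 in low-Mn mice and of 48.0, 49.0 and 48.1 in normal-Mn mice. The low-Mn libraries lay on both sides of the normal-Mn ones, and the log2 fold change was 0.03 (standard error 0.0616, adjusted p = 0.918 from edgeR). Ppm1f (ENSMUSG00000026181, chromosome 16, 16896469 to 16927364) had 51.1, 51.0 and 55.2 in low-Mn mice and 54.4, 53.2 and 55.4 in normal-Mn mice. Low-Mn replicates 1 and 2 were below all normal-Mn libraries and replicate 3 was within them. Its log2 fold change was -0.05 (standard error 0.0595, adjusted p = 0.800 from edgeR).

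Ppm1g encodes a nuclear phosphatase with a long acidic stretch that takes part in splicing and transcription. Ppm1g (ENSMUSG00000029147, chromosome 5, 31202664 to 31220687) had a normalized CPM of 68.3, 56.4 and 58.7 in low-Mn mice and of 60.5, 59.7 and 55.4 in normal-Mn mice. Low-Mn replicate 1 stood above the other 5 libraries, which overlapped. The log2 fold change was 0.06 (standard error 0.0687, adjusted p = 0.774 from edgeR), and it was -0.03 without low-Mn replicate 1.

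Ppm1h, Ppm1j and Ppm1m form a subgroup of related genes. PPM1H removes the phosphate that the kinase LRRK2 places on Rab GTPases, while the roles of PPM1J and PPM1M are less known. Ppm1h (ENSMUSG00000034613, chromosome 10, 122678762 to 122945795) had a normalized CPM of 89.4, 99.7 and 96.5 in low-Mn mice and of 97.4, 97.1 and 99.7 in normal-Mn mice. Low-Mn replicate 1 was the lowest of the 6 libraries and the diets overlapped. Its log2 fold change was -0.04 (standard error 0.0523, adjusted p = 0.806 from edgeR), and without low-Mn replicate 1 it was 0.00051. Ppm1m (ENSMUSG00000020253, chromosome 9, 106194947 to 106199746) had 20.4, 22.3 and 20.4 in low-Mn mice and 19.6, 20.99 and 22.7 in normal-Mn mice. The log2 fold change was -0.0040 (standard error 0.0921, adjusted p = 0.991 from edgeR). Its lowest and its highest value both came from normal-Mn libraries.
Ppm1j (ENSMUSG00000002228, chromosome 3, 104781056 to 104786018) was the scarcest member, with 40 to 62 counts in a library. It had a normalized CPM of 2.56, 3.23 and 2.47 in low-Mn mice and of 2.11, 2.95 and 2.66 in normal-Mn mice. The diets overlapped over most of their range, and the log2 fold change was 0.09 (standard error 0.260, 95% interval -0.45 to 0.64, adjusted p = 0.930 from edgeR). At this depth the interval still ran from -26.7% to 55.6%.

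Ppm1k and Ppm1l encode the members bound to organelles. PPM1K is the mitochondrial phosphatase that activates the branched-chain ketoacid dehydrogenase, and PPM1L sits in the endoplasmic reticulum membrane and acts on stress kinases. Ppm1k (ENSMUSG00000037826, chromosome 6, 57506502 to 57535468) had a normalized CPM of 56.6, 55.5 and 56.4 in low-Mn mice and of 52.4, 52.1 and 53.3 in normal-Mn mice. Replicates lay close together (56.1 ± 0.600 and 52.6 ± 0.622; SD, n = 3 mice each) and every low-Mn library was above every normal-Mn one. Its log2 fold change of 0.10 was the largest of the 10 listed genes, which leave out Ppm1d (standard error 0.0566, 95% interval -0.02 to 0.21). It also had the smallest p among these 10 (unadjusted p = 0.108 and adjusted p = 0.527 from edgeR). The test allows for counting noise and draws on the spread of genes of like abundance. Its standard error was larger than the spread of the 6 values alone. Ppm1l (ENSMUSG00000027784, chromosome 3, 69316861 to 69560802) had 198, 207 and 213 in low-Mn mice and 205, 196 and 213 in normal-Mn mice. The diets covered nearly the same range, and the log2 fold change was 0.0094 (standard error 0.0469, 95% interval -0.09 to 0.11, adjusted p = 0.962 from edgeR).

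Levels of different genes were compared per length, as TPM, a share of all transcripts from the counts and the exonic length of each gene. Ppm1b was the most abundant member, with a TPM of 136 ± 1.87 in low-Mn mice and 135 ± 8.75 in normal-Mn mice (SD, n = 3 each), and it made up 29.1% of the summed TPM of the 10 genes. It was followed by Ppm1l, with a mean TPM of 67.1 over the 6 libraries, and by Ppm1a, with 61.9, whose ranges of 60.7 to 70.6 and 57.2 to 65.1 overlapped. Next came Ppm1g at 42.2, Ppm1f at 37.2 and Ppm1h at 32.4, none of which overlapped with the gene before it. Ppm1k at 30.9, Ppm1m at 26.6 and Ppm1e at 24.9 each overlapped with the gene before them, and Ppm1j was lowest at 5.02. The order depended on the length used. With the longest transcript of each gene in place of all exons, Ppm1b stayed first with a mean TPM of 172 and Ppm1j last with 4.26, while Ppm1a at 83.3 and Ppm1g at 71.5 moved ahead of Ppm1l at 60.2. The summed TPM of the 10 genes was 468, 471 and 468 in low-Mn mice and 471, 431 and 473 in normal-Mn mice. By summed TPM, normal-Mn replicate 2 was thus the only library that stood apart. The low-Mn libraries lay within the range of the normal-Mn ones. The summed normalized CPM was 985, 987 and 990 in low-Mn mice and 980, 958 and 986 in normal-Mn mice. By this measure low-Mn replicates 2 and 3 lay above every normal-Mn library. Normal-Mn replicate 2 was also lowest in the summed TPM of the PPP catalytic subunits (1580) and of the other genes of the PPM family (299).

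**Figure D2:**
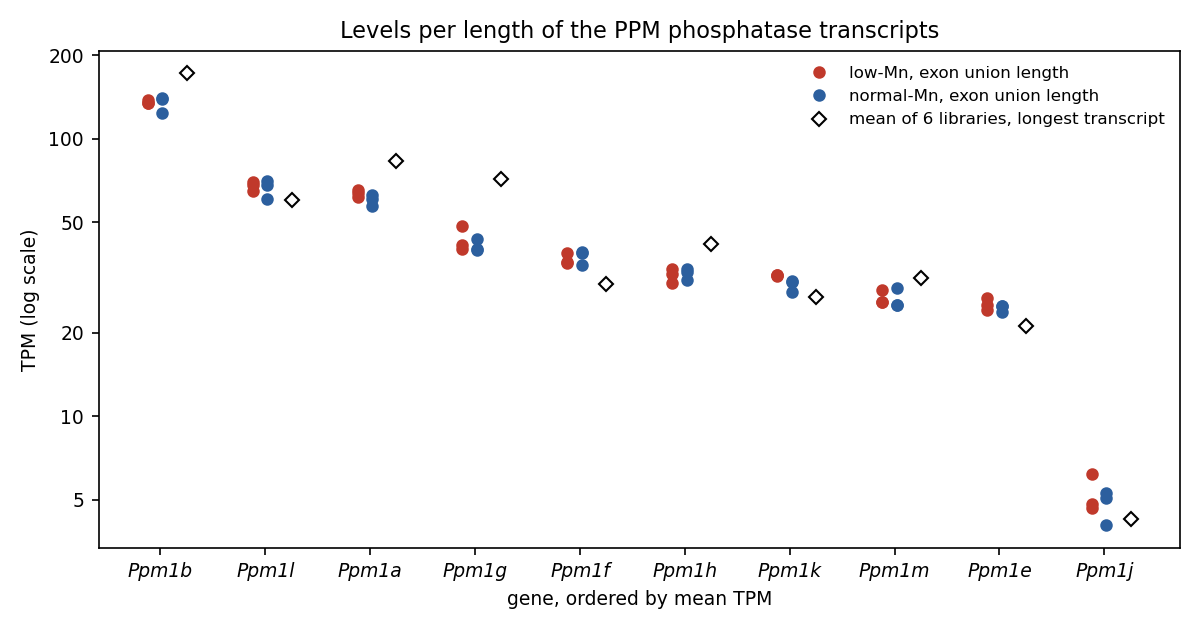
TPM (y axis, log scale) of each PPM transcript by exonic length in the low-Mn (red) and normal-Mn (blue) libraries, and the mean of the 6 libraries by the longest transcript (open diamonds). Ppm1b lies highest, at 124 to 140, and Ppm1j lowest, at 4.05 to 6.17. The diamonds lie above all points of Ppm1a, Ppm1b, Ppm1g, Ppm1h and Ppm1m, and below those of Ppm1e, Ppm1f, Ppm1k and Ppm1l.

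The other genes with the PPM fold are the pyruvate dehydrogenase phosphatases Pdp1 and Pdp2, the mitochondrial Pptc7, the AKT phosphatases Phlpp1 and Phlpp2, the integrin-linked kinase phosphatase Ilkap, the TAK1 binding protein Tab1, which has the fold but no activity, and Ppm1d and Ppm1n. None of the 8 that were tested passed edgeR's test, 3 had an unadjusted p under 0.05 (12.1% of all genes tested), and none passed with limma-voom or, among the 7 given an adjusted p, with DESeq2. Their median log2 fold change was 0.04. Ppm1n was not tested, with 2 to 7 counts in a library.
Tab1 came closest. Its normalized CPM was 35.7, 30.9 and 34.9 in low-Mn mice and 39.0, 44.2 and 40.4 in normal-Mn mice, with every low-Mn library below every normal-Mn one (log2 fold change -0.28, standard error 0.0751, 95% interval -0.44 to -0.13, adjusted p = 0.0969 from edgeR). With no filter on low counts, its adjusted p was 0.0152 from edgeR, and over all alternatives it ran from 0.0152 to 0.371. Ppm1d, a phosphatase induced by p53, had 58.3, 60.9 and 52.8 in low-Mn mice and 52.4, 50.7 and 48.2 in normal-Mn mice (log2 fold change 0.18, adjusted p = 0.235 from edgeR). The diets did not overlap, although low-Mn replicate 3 was only slightly above normal-Mn replicate 1. Pdp1, which reactivates pyruvate dehydrogenase, had 55.0, 55.4 and 52.1 against 48.1, 47.6 and 51.7 (log2 fold change 0.14, adjusted p = 0.348 from edgeR). Here too the diets did not overlap, with 1 low-Mn and 1 normal-Mn library close to each other. Log2 fold changes of the others were 0.16 for Pdp2, 0.12 for Pptc7, -0.07 for Phlpp1, -0.04 for Phlpp2 and -0.08 for Ilkap (adjusted p = 0.413 to 0.915 from edgeR). The value for Pptc7 is uncertain, because 21.2% of its exons overlap Rad9b on the opposite strand. It is not known here whether strand was used in counting. Rad9b itself was assigned between 14.0 and 56.8 counts per library.

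**Figure D3:**
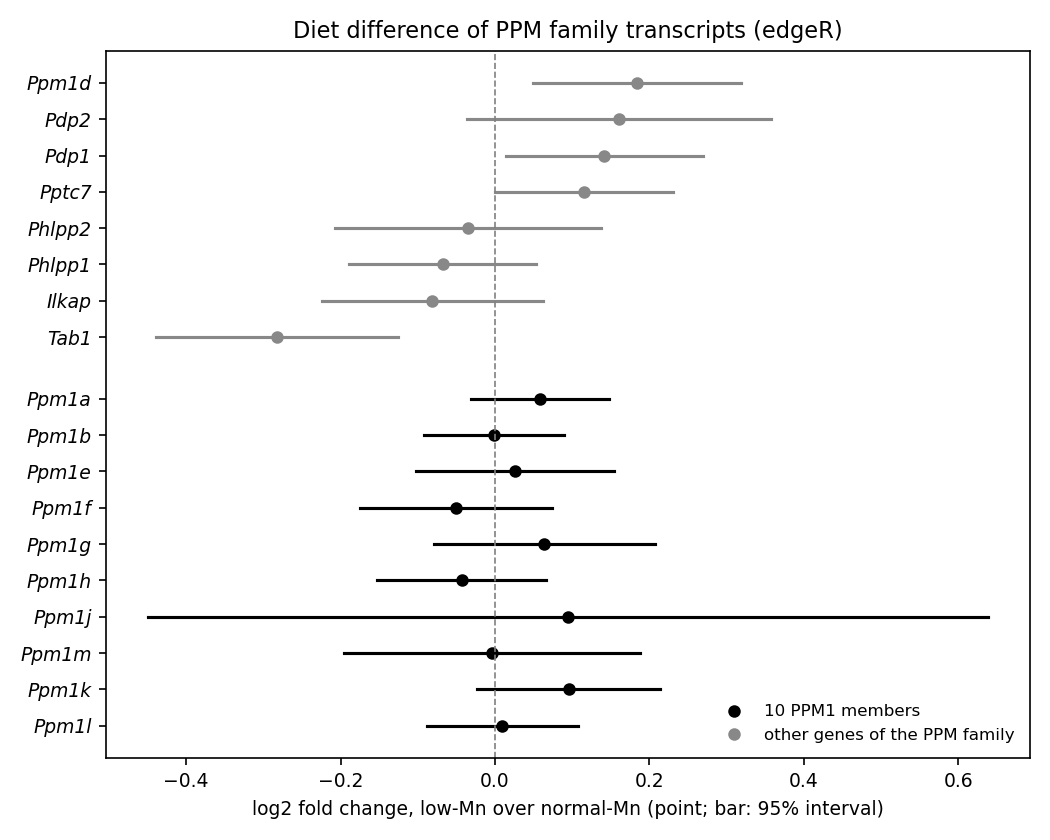
Log2 fold change of low-Mn over normal-Mn mice (x axis), with its 95% interval from edgeR, for the 10 listed PPM1 transcripts (black) and the 8 other tested genes of the PPM family, among them Ppm1d (grey). All 10 black intervals include 0, with that of Ppm1j reaching from -0.45 to 0.64, while the grey interval of Tab1 lies below 0, at -0.44 to -0.13, and those of Ppm1d and Pdp1 lie above it.

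Known substrates and partners of the PPM enzymes were read beside them. None of 41 such genes passed edgeR's test, against 0.595% of all genes tested. Of the 41, 5 had an unadjusted p under 0.05, near the share of 12.1% over all genes tested. None passed with limma-voom or, among the 31 given an adjusted p, with DESeq2, and their median log2 fold change was -0.0046. Among 11 genes of SMAD and stress kinase signaling, the targets of PPM1A, PPM1B and PPM1L, the transcription factor Smad3 had -0.15 and the endoplasmic reticulum stress sensor Ern1 0.17 (adjusted p = 0.318 and 0.559 from edgeR). Among 11 calmodulin kinases, PAK kinases and PAK partners, on which PPM1E and PPM1F act, Camk2g had -0.12 and Pak2 -0.13 (adjusted p = 0.305 and 0.339 from edgeR).
Of 6 genes of nuclear complexes linked to PPM1G, Hexim1, an inhibitor of the elongation factor P-TEFb, came closest, at 0.22 (adjusted p = 0.0754 from edgeR), followed by the P-TEFb cyclin Ccnt1, at 0.20 (adjusted p = 0.204 from edgeR). With no filter on low counts, Hexim1 passed with an adjusted p of 0.0435 from edgeR. Of the 6 Rab and LRRK2 genes, Rab12 had -0.11 and Rab10 -0.02 (adjusted p = 0.414 and 0.914 from edgeR). Of the 7 genes of branched-chain amino acid breakdown, the pathway PPM1K activates, Bcat1, a transaminase, had -0.10 and Dld, the shared dehydrogenase subunit, -0.07 (adjusted p = 0.522 and 0.601 from edgeR).
Of 13 catalytic subunits of the PPP family, 12 were tested and none passed by edgeR or limma-voom, nor by DESeq2 among the 10 given an adjusted p, none had an unadjusted p under 0.05, and the median log2 fold change was -0.0023. The calcineurin subunit Ppp3cb had 0.08 and the PP2A subunit Ppp2ca -0.05 (adjusted p = 0.535 and 0.666 from edgeR).

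The libraries held 14548336 to 21277469 counts assigned to genes, and libraries of 1 diet differed from each other beyond counting noise (chi-square per degree of freedom 3.63 to 7.60). The tissue label was borne out by its markers, with granule neuron genes led by Cbln3 at a mean CPM of 1358 in low-Mn and 1322 in normal-Mn mice and Purkinje neuron genes led by Itpr1 at 4126 and 3998. In bulk tissue, fewer cells of a type and less RNA per cell cannot be told apart. Among 13 oligodendrocyte markers, led by Mbp, Gjc3 fell, and their summed CPM was 7130 to 7430 in low-Mn and 7620 to 8460 in normal-Mn mice. Of 10 choroid plexus markers, led by Ttr, 2 fell (Kl and Sostdc1; summed CPM 3510 to 4340 and 4140 to 5000), and of 9 meningeal markers 2 fell (Igf2, the highest, and Fn1; 338 to 393 and 417 to 473). None of 12 granule neuron, 10 Purkinje neuron, 8 interneuron (led by Gad1), 9 astrocyte (Aldoc), 9 microglia, 9 endothelial and mural (Rgs5) or 5 red blood cell markers (Hbb-bs) passed edgeR's test. At an unadjusted p under 0.05 there were 1, 0, 2, 2, 3, 2 and 0 of these, against 10 of 13 oligodendrocyte, 8 of 10 choroid plexus and 5 of 9 meningeal markers and 12.1% of all genes tested. The summed CPM did not overlap between the diets for oligodendrocyte and meningeal markers, nor for those of astrocytes (5580 to 5800 in low-Mn and 5820 to 6030 in normal-Mn mice), microglia (158 to 166 and 176 to 181) and endothelial and mural cells (220 to 235 and 211 to 218). Taken singly, 8 of 13 oligodendrocyte, 5 of 10 choroid plexus and 5 of 9 meningeal markers were lower without overlap. So were 1 of 9 astrocyte and 3 of 9 microglia markers. Of 9 endothelial and mural markers, 2 were higher and 1 was lower without overlap. Over all genes tested, 17.1% did not overlap in either direction. Of 5 brain stem neuron markers, 4 were too scarce to test and Dbh did not pass. What part these cell type markers have in the PPM values was not tested.

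Across the 14 alternative settings, no PPM transcript passed in any fit, and the smallest adjusted p was 0.487, for Ppm1k. The log2 fold changes of Ppm1k stayed between 0.08 and 0.10 and those of Ppm1a between 0.04 and 0.08, and both were above 0 in every fit. Those of Ppm1f stayed between -0.09 and -0.03. The other 7 genes changed sign in at least 1 of the fits, with Ppm1j ranging most widely, from -0.03 to 0.21.

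**Figure D4:**
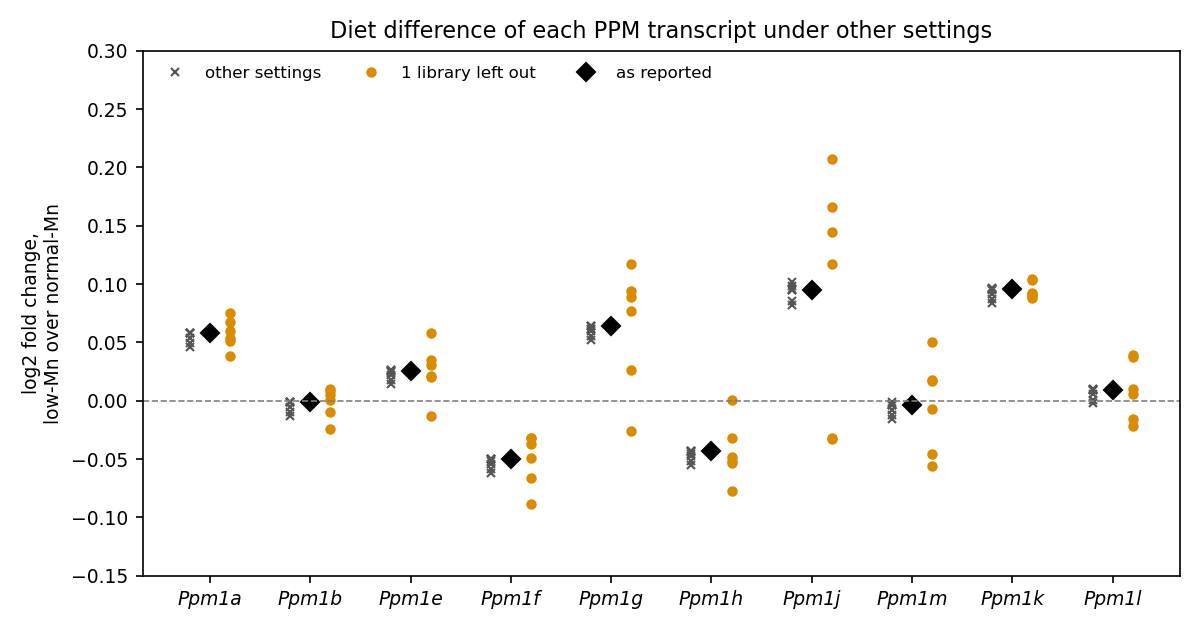
Log2 fold change of each PPM transcript (y axis, low-Mn mice over normal-Mn mice) as reported (black diamonds), under other scalings, filters, tests and the replicate block (grey crosses), and with 1 library left out (orange circles). The points of Ppm1a and Ppm1k all lie above 0 and those of Ppm1f all below it, while the values of the other 7 genes fall on both sides of 0.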

How the data were processed

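The members and lists were chosen with earlier results of these data known. The authors made oligo-dT libraries, read them on an Illumina NovaSeq and aligned them with STAR. FastQC, RSEM, DESeq2 and mm10 are named in the submitters' processing notes, and the sources used here give no tool versions. What the authors deposited are RSEM's expected counts for each gene, without normalization, and 7.13% to 7.75% of values were not whole. The 92 spike-in entries were 0 and left out. The low-Mn columns are named by a number alone and were assigned by replicate number.

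Symbols, positions and lengths came from GENCODE M21 (GRCm38), which held 53620 of 53715 gene IDs. Analyses used R 4.3.3 with edgeR 4.0.16, limma 3.58.1 and DESeq2 1.42.0, and Python 3.11.15 with pandas 2.3.3 and matplotlib 3.10.9. Expected counts were rounded, filtered with filterByExpr (minimum count 10, minimum total 15) and scaled by TMM. The diets were compared by edgeR's quasi-likelihood functions (glmQLFit, glmQLFTest), adjusting p-values by Benjamini-Hochberg over 16123 genes at a threshold of 0.05. This step was tested on simulated counts. edgeR took the place of the DESeq2 that the methods name. TPM were computed from expected counts and exon union lengths. Sequence was called shared where 50-base stretches of a gene occur in another annotated gene. Genes named are all Ppm1 members and other PPM genes, the 2 smallest p of each substrate and PPP list, the marker genes that passed and the most abundant marker of each list, apart from marker genes that are not reported here. Gene lists came from general knowledge. Replicate numbers are not stated to mark a shared litter, batch or day, so they were not treated as pairs. Deviations of the same replicate number were hardly correlated (r across genes -0.02 to 0.04). This cannot exclude a shared batch, since counting noise in scarce genes enters r. Alternatives were RLE and upper quartile scaling, no filter and a filter at a mean of 100 counts, unrounded counts, limma-voom, DESeq2, a replicate block and each library left out.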

Additional observations from a re-analysis of the deposited data

How the results depend on the processing

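The count of PPM transcripts that passed was 0 under all 14 alternatives, and so was that of PPP subunits. Without a filter on low counts, 1 other PPM gene (Tab1) and 1 substrate gene (Hexim1) passed, against 0 of each in the reported test, and 424 of all genes passed against 96. With limma-voom, 63 genes passed. Leaving out 1 library gave 37 to 93 genes, with the values under the reported count by over 1.5 times when low-Mn replicate 1 (47), low-Mn replicate 2 (37) or normal-Mn replicate 2 (45) was left out. The cause was not tested. Of the genes that passed, 69.8% were higher on the low-Mn diet as reported, 58.9% with upper quartile scaling and 51.4% without a filter. The replicate block gave 128 genes, with 0 PPM transcripts, and changed no other call of these lists.

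With upper quartile scaling the log2 fold change of Ppm1l was -0.0022. When 1 library was left out, the log2 fold changes ran from -0.024 to 0.0100 for Ppm1b, from -0.013 to 0.058 for Ppm1e, from -0.026 to 0.117 for Ppm1g, from -0.077 to 0.00051 for Ppm1h, from -0.033 to 0.207 for Ppm1j, from -0.022 to 0.039 for Ppm1l and from -0.056 to 0.051 for Ppm1m, with both signs for each. None of them passed. The filter at a mean of 100 counts removed Ppm1j, so that it has no value there, and DESeq2 gave no adjusted p for Ppm1j, Ppm1m or Pdp2. The length used moved the mean TPM of all 10 genes by more than 1 SD over the 6 libraries, but their summed TPM, low-Mn over normal-Mn, stayed at 1.02. Depth limits Ppm1j most.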
